A study of Mus musculus with 100 samples.

Results

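The neutrophil-attracting CXC chemokines and their receptors are 7 genes, chosen by name from the 17310 genes of a count table of mouse knee joints: the ligands Cxcl1, Cxcl2, Cxcl3 and Cxcl5, their receptor Cxcr2, and the pair Cxcl12 and Cxcr4. All 7 were present in the table and all 7 are described here in every group. The right knee of each mouse was injured with a single compressive load that ruptures the anterior cruciate ligament (ACL), and the contralateral knee was left uninjured. RNA was sequenced from whole joints of mice injured at the age of 10 weeks. The mice were of the STR/ort strain (highly susceptible to osteoarthritis), the C57BL/6 strain (moderately susceptible) and the MRL/MpJ strain (not susceptible). The labels name no engineered allele and no drug. The 21 groups, of 4 or 5 libraries each, were the uninjured joints of each strain before injury (0-day, 12 libraries) and the injured and contralateral joints of each strain at 1-day (30 libraries), 1-week (28 libraries) and 2-weeks (30 libraries) post-injury. The joint was cut at the edges of femur and tibia, so a library holds RNA of cartilage, bone, marrow and traces of soft tissue together. In such a sample, fewer cells of a type and less RNA per cell cannot be told apart.

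CXC chemokines are small secreted proteins that direct the movement of leukocytes. Cxcl1, Cxcl2, Cxcl3 and Cxcl5 bind Cxcr2, a receptor carried mainly by neutrophils, and draw these cells from blood into inflamed tissue. They are made on demand by stromal cells, endothelium and macrophages after signals such as interleukin-1 that act through NF-kappaB. Cxcl12, made by marrow stroma, binds Cxcr4 and holds neutrophils and blood progenitors in the bone marrow, and Cxcr2 signalling works in the opposite direction by favouring their release.

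The 4 ligand genes lie close together on chromosome 5 of the mm10 (GRCm38) build, Cxcl5 at chr5:90759298-90761625, Cxcl3 at chr5:90786101-90788093, Cxcl1 at chr5:90891245-90893121 and Cxcl2 at chr5:90903899-90905938. Cxcr2 (chr1:74153994-74161246) and Cxcr4 (chr1:128588199-128592299) lie on chromosome 1 and Cxcl12 (chr6:117168535-117181368) on chromosome 6. The 120 bases before the annotated start site of Cxcl1, Cxcl2 and Cxcl3 (RefSeq, GRCm38.p6) are printed because these 3 similar genes all rose in injured STR/ort joints at 1-day and share a run of letters there. Cxcl5 rose in those joints as well, but no promoter sequence was available for it, so its promoter was not examined. Each is written 5′ to 3′ on the gene's own strand, which is the plus strand in all 3, with matches to an NF-kappaB motif (GGG, any 3 bases, then TTCC, on either strand) in capitals.
Cxcl1, chr5:90891125-90891244: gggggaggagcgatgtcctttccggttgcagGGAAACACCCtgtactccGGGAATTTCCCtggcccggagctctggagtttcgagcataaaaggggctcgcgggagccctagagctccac
Cxcl2, chr5:90903779-90903898: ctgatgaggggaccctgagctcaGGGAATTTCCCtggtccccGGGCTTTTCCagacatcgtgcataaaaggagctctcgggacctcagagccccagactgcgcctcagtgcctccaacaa
Cxcl3, chr5:90785981-90786100: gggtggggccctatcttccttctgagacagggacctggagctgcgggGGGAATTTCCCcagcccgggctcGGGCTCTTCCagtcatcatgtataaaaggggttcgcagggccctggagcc
The motif occurred in 5.56% of the 32851 RefSeq promoter windows of 300 bases (250 before to 50 after the start). The longest run of letters that the 3 stretches share is GGGAATTTCCC, which was found in 14 of the 32851 windows, the 3 above included, and which was looked for after these windows had been read. The windows of Cxcr2, Cxcl12 and Cxcr4 held neither this NF-kappaB motif nor the AP-1 motif TGANTCA (present in 7.81% of windows), and Cxcl1, Cxcl2 and Cxcl3 held no TGANTCA. A match describes the letters only, and binding was not measured in these samples.

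Counts per library ranged from 6182016 to 20986027 (median 10582591). Levels are given as CPM, the reads of a gene relative to all counted reads of the library, scaled by library factors of 0.876 to 1.09 that correct for composition, and differences as log2 fold changes with their standard error (SE). A gene was called changed at an adjusted p under 0.05 and a fold change above 1.5, with edgeR's quasi-likelihood test and Benjamini-Hochberg adjustment over all 17310 genes, and an adjusted p below comes from this test unless DESeq2 or another setting is named beside it. The labels give no animal identity before 2-weeks, so p-values measure only the spread between these samples. Comparisons at 1 time point share groups, and their results are not independent of each other. Markers of cartilage and of mature neutrophils were detected in every group, with none of them at 0. Cxcl1, Cxcl2 and Cxcl3 are similar in sequence, and how reads that match several of them were counted is not given in the sources used here.

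Before injury, the ligands differed between the strains, and Cxcl1 most of all. No Cxcl1 read was counted in the 4 MRL/MpJ joints. The 4 C57BL/6 joints had 0.634, 0.402, 0.183 and 0.393 CPM, and the 4 STR/ort joints had 37.5, 19.4, 14.2 and 11.5 CPM. Every STR/ort joint was above every joint of the other strains, and the STR/ort joints themselves spread over a wide range. Cxcl1 was higher in STR/ort than in C57BL/6 by 5.61 on the log2 scale (SE 0.46, adjusted p = 2.36e-07). Against MRL/MpJ it was at least 215-fold higher, with reads summed over each group and the limit of 3 counts over the MRL/MpJ group taken as its level (adjusted p = 1.61e-07). Between C57BL/6 and MRL/MpJ, which had 18 and 0 reads of Cxcl1 over 4 joints each, the difference did not pass the test (adjusted p = 0.0938), although DESeq2 called it (adjusted p = 0.00308), as did edgeR with 1 factor of unwanted variation estimated from housekeeping genes (RUVg; adjusted p = 0.0494) and without STR/ort replicate 1 (adjusted p = 0.00554).

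Cxcl5 and Cxcl2 were also highest in STR/ort at 0-day, at lower levels in that strain than Cxcl1. Cxcl5 had 7.96, 3.55, 2.61 and 3.80 CPM in STR/ort, against 1.82 ± 0.42 CPM in C57BL/6 and 1.57 ± 0.559 CPM in MRL/MpJ (mean ± SD, n = 4 each). The STR/ort range lay above both others, and Cxcl5 was higher by 1.28 (SE 0.31, adjusted p = 0.00379) than in C57BL/6 and by 1.49 (SE 0.35, adjusted p = 0.00244) than in MRL/MpJ on the log2 scale. With 2 RUVg factors, the call against C57BL/6 was lost (0.79, adjusted p = 0.54). Cxcl2, at 0.596 ± 0.133 CPM (SD, n = 4) or 4 to 8 reads per STR/ort joint, was higher by 1.63 than in C57BL/6 (SE 0.59, adjusted p = 0.0381). That call is weak, since DESeq2 (adjusted p = 0.0789) and RUVg with 1 or 2 factors (0.159 and 0.963) did not make it and leaving out 1 library ended it for 5 of the 12. Against MRL/MpJ, where 3 reads were counted over the group, Cxcl2 was higher by a ratio of 6.08 (95% counting interval 1.83 to 31.7, adjusted p = 0.0153), a call lost without MRL/MpJ replicate 2 (adjusted p = 0.0552). Cxcl3 had at most 5 reads in any 0-day joint and passed no test between strains.

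Of the 7 genes, 3 were called between STR/ort and C57BL/6 at 0-day, where 13.8% of all genes tested were called. Between STR/ort and MRL/MpJ, 4 were called against 14.8% of all genes, and the fourth was Cxcl12, which was lower in STR/ort by 0.61 on the log2 scale (SE 0.07, adjusted p = 3.89e-06). None was called between C57BL/6 and MRL/MpJ by edgeR, against 15.9% of all genes, where 5 had an unadjusted p under 0.05 and DESeq2 called 1, which was Cxcl1.

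Other gene groups also differed between the strains at 0-day. The 8 immediate early genes, transcription factor and related genes that are induced within minutes of stress or handling, were all higher in STR/ort than in C57BL/6 (8 of 8, median log2 difference 2.95) and than in MRL/MpJ (8 of 8, median 2.81). Their summed level was 154 to 220 CPM in C57BL/6 and 177 to 199 CPM in MRL/MpJ. In the 4 STR/ort joints, in the order of the Cxcl1 values above, it was 2010, 1880, 1140 and 1070 CPM, the same rank order as Cxcl1. Skeletal muscle markers summed to 62900 to 70500 CPM in STR/ort, 60100 to 72300 CPM in MRL/MpJ and 27200 to 44400 CPM in C57BL/6. The summed level of the 5 synovial fibroblast markers had the strain order of Cxcl1, at 1890 to 2390 CPM in MRL/MpJ, 3240 to 5000 CPM in C57BL/6 and 4180 to 8150 CPM in STR/ort, although the median log2 difference of the 5 was -0.02 between STR/ort and C57BL/6 and 0.87 between STR/ort and MRL/MpJ. Mature neutrophil markers summed to 6200 to 7400 CPM in STR/ort, 7230 to 9230 CPM in C57BL/6 and 7700 to 9530 CPM in MRL/MpJ. At an unadjusted p under 0.05 (edgeR), 7 of 8 were lower in STR/ort than in each, and 1 was higher than in MRL/MpJ. By the call rule, 1 of 8 was called against C57BL/6 and 0 of 8 against MRL/MpJ, beside 13.8% and 14.8% of all genes. DESeq2 called 0 of 8 in both. Monocyte and macrophage markers summed to 321 to 411 CPM in STR/ort, 540 to 589 CPM in C57BL/6 and 389 to 444 CPM in MRL/MpJ, with 3 of 7 called lower in STR/ort than in C57BL/6 and 1 of 7 than in MRL/MpJ. The part of any of these groups in the Cxcl1 level of STR/ort before injury was not tested.

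**Figure D1:**
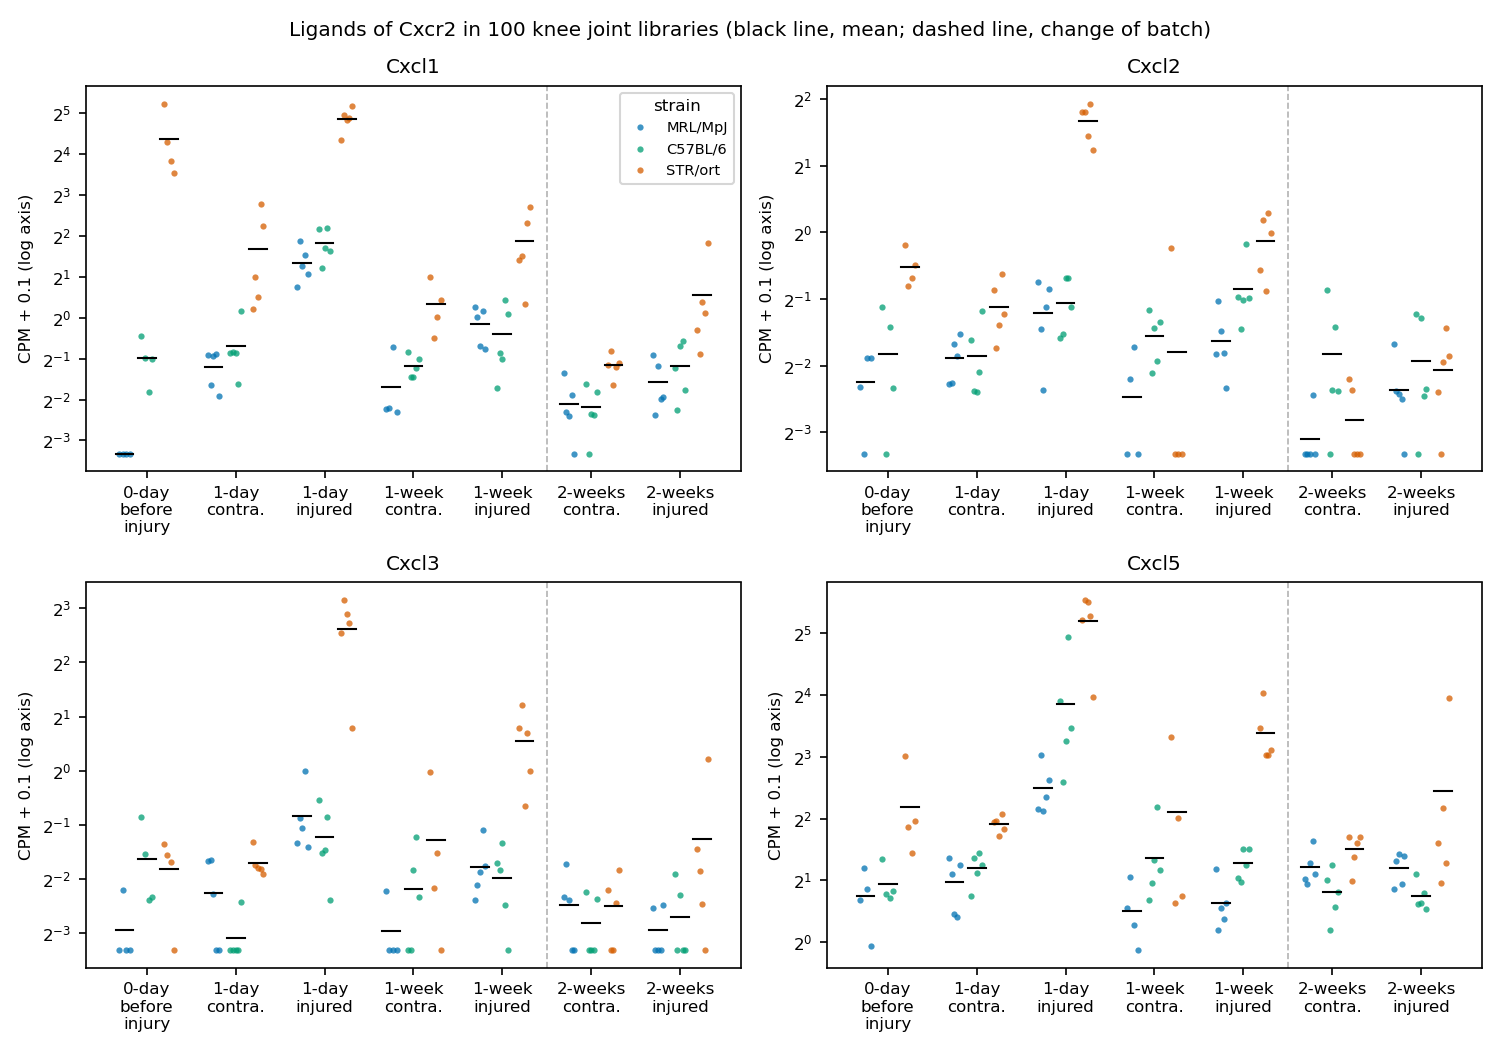
CPM + 0.1 of Cxcl1, Cxcl2, Cxcl3 and Cxcl5 (vertical, log axes) in each library (points, coloured by strain) by time point and joint, with the group mean as a black line and the change of batch dashed. Cxcl1 reaches 37.5 CPM in STR/ort before injury and 35.7 CPM in injured STR/ort joints at 1-day, and Cxcl2 and Cxcl3 are highest in injured STR/ort joints at 1-day, where they average 3.09 and 6.01 CPM.

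At 1-day post-injury, the question was which of these genes changed in the injured joint of each strain. All 4 ligands of Cxcr2 rose in injured STR/ort joints, 3 rose in C57BL/6 and 2 in MRL/MpJ, and Cxcl1 and Cxcl5 rose in all 3 strains. In STR/ort, 4 of the 7 genes were called, all higher, against 4.31% of all genes tested (1.61% higher). In C57BL/6 it was 3 of 7, all higher, against 5.6% (4.26% higher), and in MRL/MpJ 2 of 7, both higher, against 2.02% (1.53% higher). The median log2 difference over the 7 genes was 3.02 in STR/ort, 1.14 in C57BL/6 and 0.91 in MRL/MpJ, beside -0.02, -0.02 and 0.01 over all genes.

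Cxcl1 had 20.0, 31.1, 28.4, 29.4 and 35.7 CPM in the 5 injured STR/ort joints and 1.05, 1.89, 1.31, 6.76 and 4.61 CPM in the 5 contralateral joints. The injured C57BL/6 joints had 4.42, 2.23, 3.15, 4.49 and 2.99 CPM, and the contralateral ones 0.449, 0.460, 0.451, 0.225 and 1.02 CPM. Injured MRL/MpJ joints had 1.58, 3.54, 2.28, 2.77 and 2.01 CPM, and contralateral ones 0.430, 0.217, 0.425, 0.440 and 0.164 CPM. Injured and contralateral joints did not overlap in any strain, and every injured STR/ort joint was above every injured joint of the other strains. Cxcl1 rose by 3.19 on the log2 scale in STR/ort (SE 0.28, adjusted p = 2.26e-09), by 2.83 in C57BL/6 (SE 0.46, adjusted p = 3.53e-05) and by 2.87 in MRL/MpJ (SE 0.55, adjusted p = 0.00106). In each strain, the call stood in all 30 fits that left out 1 library.

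Cxcl5, a ligand made largely by stromal and epithelial cells, had 37.0, 46.4, 45.4, 38.7 and 15.5 CPM in injured STR/ort joints against 3.66 ± 0.355 CPM (SD, n = 5) in contralateral ones. In injured C57BL/6 joints it had 14.8, 5.94, 9.46, 30.7 and 11 CPM against 2.21 ± 0.408 CPM, and in injured MRL/MpJ joints 4.34, 8.05, 4.27, 5.01 and 6.04 CPM against 1.87 ± 0.578 CPM (SD, n = 5 each). No injured joint overlapped the contralateral joints of its strain, but 1 C57BL/6 joint (30.7 CPM) was above 1 STR/ort joint (15.5 CPM). Cxcl5 rose by 3.30 in STR/ort (SE 0.31, adjusted p = 6.51e-09), by 2.70 in C57BL/6 (SE 0.34, adjusted p = 7.07e-07) and by 1.59 in MRL/MpJ (SE 0.40, adjusted p = 0.015) on the log2 scale. The MRL/MpJ call was lost without injured replicate 2 (adjusted p = 0.0759), contralateral replicate 3 (0.0523) or contralateral replicate 4 (0.0525).

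Cxcl2 and Cxcl3 were low outside injured STR/ort joints. Cxcl2 had 3.42, 3.42, 2.62, 3.73 and 2.25 CPM in injured STR/ort joints and 0.452, 0.199, 0.280, 0.548 and 0.330 CPM in contralateral ones, a rise of 3.02 on the log2 scale (SE 0.26, adjusted p = 2.14e-09). In injured C57BL/6 and MRL/MpJ joints it averaged 0.378 ± 0.143 and 0.334 ± 0.161 CPM (SD, n = 5 each), and the differences of 1.14 (SE 0.43) and 0.91 (SE 0.46) from their contralateral joints did not pass the test (adjusted p = 0.099 and 0.434). These C57BL/6 and MRL/MpJ values rest on 1 to 7 reads per injured joint.

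Cxcl3 had the largest fold change of the 7 genes in STR/ort, with 5.72, 8.81, 7.38, 6.51 and 1.62 CPM in injured joints and 0.301, 0.199, 0.187, 0.183 and 0.165 CPM in contralateral ones. It rose by 4.75 on the log2 scale (SE 0.42, adjusted p = 2.39e-09), and by 4.59 to 5.01 when 1 library was left out. In C57BL/6, 16 reads over 5 injured joints stood against 1 read over 5 contralateral ones, a ratio of 21.3 (95% counting interval 3.31 to 894, adjusted p = 0.0128). That call was lost without contralateral replicate 4 (adjusted p = 0.0503), and without replicate 5, which held the 1 read, the fitted log2 difference went from 3.67 to 4.93. In MRL/MpJ the difference of 2.14 (SE 0.76) did not pass the test (adjusted p = 0.124), although the 5 injured joints (0.274 to 0.895 CPM) were all above the 5 contralateral ones (0 to 0.217 CPM).

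One injured STR/ort library stood apart among these 5. Replicate 5 had the highest Cxcl1 (35.7 CPM) and the lowest Cxcl2, Cxcl3 and Cxcl5 (2.25, 1.62 and 15.5 CPM). Its immediate early genes summed to 788 CPM and its muscle markers to 35100 CPM, against 185 to 250 CPM and 13800 to 20300 CPM in the other 4 injured joints. The contralateral joint numbered 5 was also high in immediate early genes (843 CPM against 182 to 355 CPM). All 4 ligands were called in STR/ort without the injured library and without the contralateral one.

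**Figure D2:**
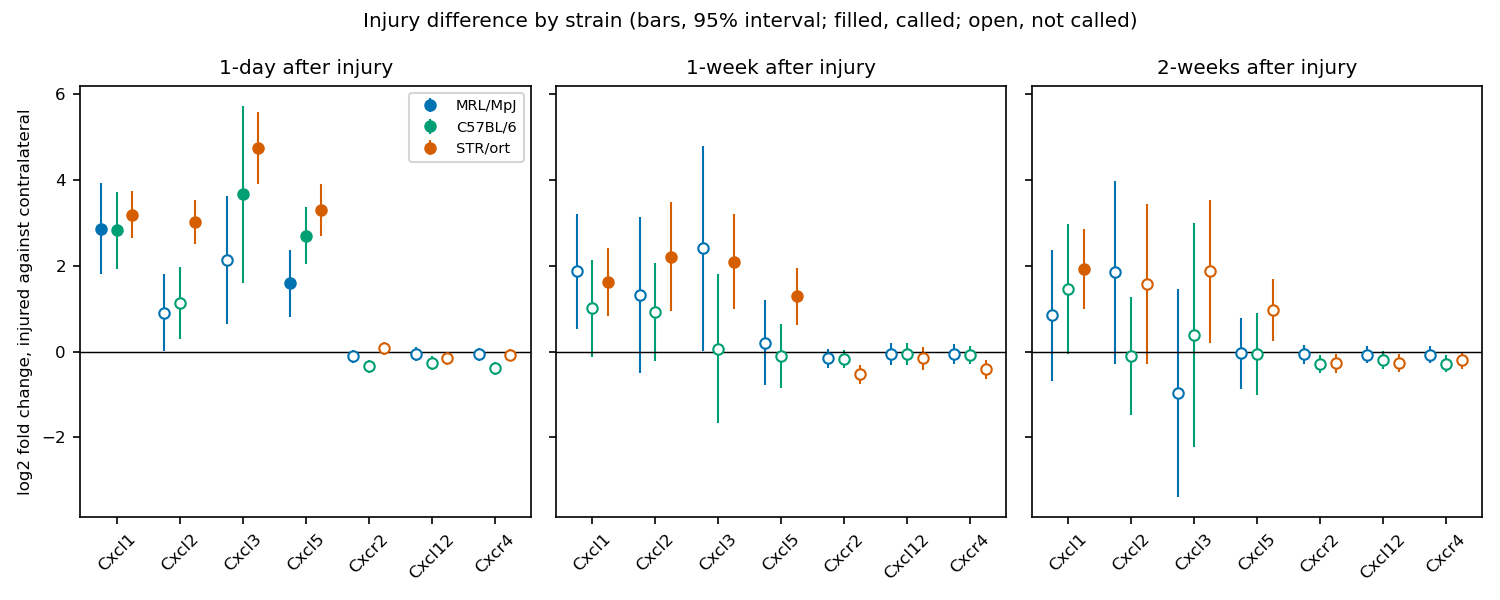
Log2 fold change of injured against contralateral joints for each of the 7 genes (points) with its 95% confidence interval (lines), by strain and time point, with filled points for called genes. The 4 ligands of STR/ort sit between 3.02 and 4.75 at 1-day and between 1.29 and 2.21 at 1-week, and Cxcr2, Cxcl12 and Cxcr4 lie between -0.53 and 0.08 throughout.

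The receptor Cxcr2 did not move with its ligands. At 1-day it had 131, 146, 126, 121 and 111 CPM in injured STR/ort joints and 118, 108, 118, 112 and 138 CPM in contralateral ones. The groups overlapped, and the difference of 0.08 on the log2 scale had a 95% interval from -0.07 to 0.23. In C57BL/6, Cxcr2 had 75.0, 60.0, 62.5, 60.7 and 63.3 CPM in injured joints and 81.2, 78.7, 74.8, 93.2 and 77.7 CPM in contralateral ones. It was lower by a small margin (log2 difference -0.34, SE 0.08, adjusted p = 0.00218) that stayed under the fold threshold. Cxcl12 (-0.27, SE 0.08, adjusted p = 0.0184) and Cxcr4 (-0.39, SE 0.08, adjusted p = 0.000362) were lower in injured C57BL/6 joints by similar margins. In the same joints, all 8 granulocyte precursor, 4 B cell and 4 erythroid markers were lower at an adjusted p under 0.05 without reaching the fold threshold (medians -0.48, -0.46 and -0.49), and the 5 marrow stroma markers summed to 215 to 238 CPM against 252 to 287 CPM. Their part in the lower levels of these 3 genes was not tested. In MRL/MpJ, the differences of Cxcr2, Cxcl12 and Cxcr4 were -0.11, -0.06 and -0.06, and in STR/ort those of Cxcl12 and Cxcr4 were -0.16 and -0.08, none past the test. Over 3 strains and 3 time points, edgeR and DESeq2 called 0 of the 9 injury differences of each of these 3 genes. An unadjusted p was under 0.05 in 10 of the 27 tests, all with the lower level in the injured joint.

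None of the markers of mature neutrophils was called higher at 1-day. The 8 markers (S100a8, S100a9, Csf3r, Ly6g, Retnlg, Mmp8, Trem1 and Cd177) had a median log2 difference of -0.15 in STR/ort, -0.41 in C57BL/6 and -0.08 in MRL/MpJ, and 0 of 8 were called in each strain by edgeR and by DESeq2, beside 4.31%, 5.6% and 2.02% of all genes. In C57BL/6, all 8 were lower in injured joints at an adjusted p under 0.05 without reaching the fold threshold. Their unadjusted p was under 0.05 for 2 of 8 in STR/ort (1 higher and 1 lower) and 0 of 8 in MRL/MpJ. Their summed level was 6720 to 8350 CPM in injured and 6790 to 9780 CPM in contralateral STR/ort joints. In C57BL/6 it was 5100 to 6530 against 7290 to 8780 CPM, and in MRL/MpJ 6910 to 9210 against 8350 to 9330 CPM. Since the joints hold marrow, which is rich in neutrophils, these sums do not separate cells in the joint space from those in marrow.

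Between strains at 1-day, the ligands were highest in injured STR/ort joints. Against injured C57BL/6 joints, 5 of 7 genes were called beside 12.4% of all genes, with Cxcl1 higher by 3.03 (SE 0.28, adjusted p = 9.35e-10), Cxcl2 by 2.95 (SE 0.27, adjusted p = 7.25e-10), Cxcl3 by 4.14 (SE 0.41, adjusted p = 2.68e-09) and Cxcl5 by 1.30 (SE 0.27, adjusted p = 0.000382) on the log2 scale. The fifth was Cxcr2, higher by 0.98 (SE 0.08, adjusted p = 3.89e-11). The Cxcl5 call was lost when 1 or 2 RUVg factors were added (log2 differences 1.13 and 1.00, adjusted p = 0.0558 and 0.0629). Against injured MRL/MpJ joints, the 4 ligands were called beside 20.3% of all genes, with log2 differences of 3.56 for Cxcl1, 3.18 for Cxcl2, 3.68 for Cxcl3 and 2.72 for Cxcl5. With 2 RUVg factors the Cxcl3 difference went to 1.82 and its call was lost (adjusted p = 0.0577). Injured C57BL/6 joints had more Cxcl5 than MRL/MpJ by 1.43 (adjusted p = 0.000379) and less Cxcr2 by 1.06 on the log2 scale, 2 of 7 called beside 16.3%. The synovial fibroblast markers were also highest in injured STR/ort joints, at a sum of 7150 to 12800 CPM against 4530 to 6420 CPM in C57BL/6 and 3220 to 5230 CPM in MRL/MpJ, and their part in the ligand differences was not tested.

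The strains also differed in their contralateral joints at 1-day. Cxcl1 was higher in STR/ort than in C57BL/6 by 2.66 (adjusted p = 4.5e-05) and than in MRL/MpJ by 3.24 (adjusted p = 6.02e-06). The contralateral STR/ort joints with the most Cxcl1, replicates 4 and 5 (6.76 and 4.61 CPM), also had the highest sums of immediate early genes in their group (355 and 843 CPM, others 182 to 288), and the part of the latter was not tested. Cxcl3 was called against C57BL/6 on 12 reads against 1 (ratio 13.6, 95% counting interval 2.02 to 583, adjusted p = 0.0395), a call that both RUVg fits and 8 of the 30 fits without 1 library did not make. Cxcl5 was called against MRL/MpJ (log2 difference 1.01, adjusted p = 0.0465), and both RUVg fits and 18 of the 30 fits without 1 library did not make that call. The background was 10.5% of all genes between STR/ort and C57BL/6 and 22.6% between STR/ort and MRL/MpJ. Cxcr2 was lower in C57BL/6 than in MRL/MpJ by 0.83 (adjusted p = 7.08e-10), 1 of 7 beside 14.8%. Synovial fibroblast markers summed to 8940 to 12700 CPM in contralateral STR/ort joints, 3310 to 4130 CPM in C57BL/6 and 2320 to 3170 CPM in MRL/MpJ, and their part was not tested.

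Whether the injury difference itself was larger in STR/ort was tested as an interaction of strain and injury. None of the 7 genes was called at any time point for any pair of strains by edgeR or by DESeq2, which gave no adjusted p in 10 of these 63 tests, and 13 of the 63 had an unadjusted p under 0.05. At 1-day, Cxcl1 rose in STR/ort by 0.36 more than in C57BL/6 (95% interval -0.90 to 1.63, adjusted p = 0.83). Among the ligands, Cxcl2 had the widest gap to C57BL/6 relative to its error (1.88, SE 0.57, adjusted p = 0.0907), and Cxcl5 that to MRL/MpJ (1.71, SE 0.53, adjusted p = 0.32). Cxcr2 passed the adjusted p but not the fold threshold between STR/ort and C57BL/6 (0.42, SE 0.11, adjusted p = 0.0212). With same-numbered joints treated as pairs, its adjusted p was 0.052 (edgeR). The background was 2.66% of all genes called between STR/ort and C57BL/6, 0.318% between C57BL/6 and MRL/MpJ and 0.162% between STR/ort and MRL/MpJ at 1-day, 0.491%, 0% and 0.884% in the same order at 1-week, and 0.0462%, 0% and 0.451% at 2-weeks. The larger level of Cxcl1 in injured STR/ort joints stood beside a larger level in the contralateral joints of the same strain.

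At 1-week, the 4 ligands were called in STR/ort and none of them in the other strains. Cxcl1 had 2.55, 2.74, 1.16, 4.88 and 6.37 CPM in injured STR/ort joints against 1.88, 0.604, 0.904 and 1.24 CPM in the 4 contralateral ones. Cxcl5 had 11, 16.2, 8.11, 8.03 and 8.56 CPM against 9.92, 1.45, 3.95 and 1.58 CPM. For both genes, 1 or more injured joints fell within the contralateral range. Cxcl1 was higher in injured STR/ort joints by 1.62 (SE 0.40, adjusted p = 0.00402) and Cxcl5 by 1.29 (SE 0.34, adjusted p = 0.00614) on the log2 scale. In the same joints the 5 endothelial markers summed to 347 to 436 CPM against 245 to 295 CPM, with no overlap, and muscle markers to 11600 to 25300 CPM against 23100 to 46300 CPM. Their part in the ligand differences was not tested.

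Cxcl3 had 1.63, 2.22, 0.535, 1.52 and 0.896 CPM in injured STR/ort joints at 1-week against 0.879, 0.121, 0.247 and 0 CPM in contralateral ones, a difference of 2.09 (SE 0.57, adjusted p = 0.00754). Cxcl2 had 0.580, 1.04, 0.446, 1.12 and 0.896 CPM against 0.754, 0, 0 and 0 CPM, a difference of 2.21 (SE 0.65, adjusted p = 0.0132). Contralateral replicate 1 was the highest of its group for all 4 ligands and held all 6 contralateral reads of Cxcl2, and the Cxcl2 difference ranged from 1.69 to 6.04 when 1 library was left out. Without that replicate, the difference of Cxcl3 went to 3.16 and that of Cxcl5 to 2.06. Without contralateral replicate 3 the Cxcl2 call was lost (adjusted p = 0.0768). In STR/ort, 4 of 7 genes were called against 9.21% of all genes. In C57BL/6 and MRL/MpJ, 0 of 7 were called by edgeR and by DESeq2 (which gave no adjusted p in 4 of the 21 tests at 1-week), against 5.82% and 3.13%, and 0 and 1 of 7 had an unadjusted p under 0.05.

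Cxcr2 moved the other way in STR/ort at 1-week, with 73.6, 83.4, 99.6, 92.4 and 98.5 CPM in injured joints and 126, 114, 142 and 134 CPM in contralateral ones. The groups did not overlap, and the difference of -0.53 (adjusted p = 0.000928) stayed under the fold threshold. With 2 RUVg factors it passed (log2 difference -0.78), as it did without contralateral STR/ort replicate 2 (-0.59). Cxcr4 was lower by 0.41 in the same joints (adjusted p = 0.00955), also under the fold threshold. Of the 8 mature neutrophil markers, 5 (Csf3r, Ly6g, Mmp8, S100a8 and Trem1) fell in injured STR/ort joints at 1-week, with log2 differences of -0.60 to -0.69 (median of the 8, -0.62), and DESeq2 called 4, beside 9.21% of all genes. Of the 8 markers of marrow granulocyte precursors, 4 (Camp, Chil3, Elane and Prtn3) fell (median of the 8, -0.59), and DESeq2 called 3. The summed neutrophil markers were at 4330 to 5990 CPM in injured and 6970 to 9450 CPM in contralateral joints.

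Within injured joints at 1-week, STR/ort was above C57BL/6 for Cxcl1 (log2 difference 2.34), Cxcl3 (3.08) and Cxcl5 (2.12), 3 of 7 genes beside 25.1% of all genes, and all 3 calls were lost with 1 RUVg factor (log2 differences 1.21, 1.35 and 1.40) and with 2 (1.58, 2.01 and 1.67). Against MRL/MpJ, 6 of 7 genes were called beside 29.5%: Cxcl1, Cxcl2, Cxcl3 and Cxcl5 were higher in STR/ort by 2.12, 1.84, 2.67 and 2.78, and Cxcl12 was lower by 0.78 and Cxcr2 by 0.60 on the log2 scale. Against MRL/MpJ, the calls of Cxcl1 (0.79, adjusted p = 0.598), Cxcl2 (1.57, 0.354) and Cxcl3 (0.62, 0.81) were lost with 1 RUVg factor and also with 2, and that of Cxcl5 with 2 (2.41, 0.0982). Cxcr2 lay close to the fold threshold and fell short of it with RLE size factors and with DESeq2 (-0.58 in each) and in 7 of the 28 fits without 1 library. In contralateral joints, Cxcl1 was higher in STR/ort than in C57BL/6 by 1.72 (adjusted p = 0.0156), 1 of 7 beside 22.2%. That call was lost with 1 or 2 RUVg factors (0.62 and 0.87, adjusted p = 0.69 and 0.596) and without contralateral STR/ort replicate 1 (adjusted p = 0.0749). Without that replicate, which held all STR/ort reads of Cxcl2 there, edgeR called Cxcl2 lower in STR/ort (-4.33, against -0.51, adjusted p = 0.00516). Cxcl5 (0.72) ranged from -0.04 to 1.06 without 1 library, and was called without C57BL/6 replicate 4 or STR/ort replicate 2 or 4. Against MRL/MpJ, 4 of 7 were called beside 24.4%, with Cxcl1 higher by 2.36, Cxcl3 by 2.99 and Cxcl5 by 1.70, and Cxcl12 lower by 0.68. All 3 ligand calls were lost with 1 RUVg factor (0.99, 0.81 and 0.77, adjusted p = 0.602, 0.755 and 0.546) and with 2. Without contralateral STR/ort replicate 1, the difference of Cxcl5 went to 0.93 (adjusted p = 0.0725) and that of Cxcl3 to 1.93 (adjusted p = 0.263). The Cxcl3 call was lost in 4 further fits without 1 library, and the Cxcl1 difference went to 3.25 without contralateral MRL/MpJ replicate 3. Cxcl12 fell short of the fold threshold without contralateral STR/ort replicate 2 (-0.56). By edgeR, no member was called between C57BL/6 and MRL/MpJ in injured (9.47%) or contralateral joints (8.53%), although with 2 RUVg factors Cxcr2 was called lower in C57BL/6 in both (-0.68 and -0.74, against -0.39 and -0.37). RUVg with 1 or 2 factors also called Cxcl12 lower in STR/ort than in C57BL/6, in injured (-0.81 and -0.97, against -0.56) and contralateral joints (-0.72 and -0.84, against -0.46). With 2 factors, Cxcr2 was called lower in STR/ort than in C57BL/6 in injured joints (-0.66, against -0.22) and than in MRL/MpJ in contralateral ones (-0.93, against -0.23). Synovial fibroblast markers summed to 10800 to 14600 CPM in injured STR/ort joints, 4040 to 4630 CPM in C57BL/6 and 4100 to 4710 CPM in MRL/MpJ, and in contralateral ones to 8490 to 22400, 1810 to 2410 and 2160 to 2320 CPM. Muscle markers summed to 11600 to 25300 CPM in injured STR/ort joints, 22300 to 45000 CPM in C57BL/6 and 35400 to 59200 CPM in MRL/MpJ. The part of these markers in the strain differences was not tested.

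At 2-weeks, Cxcl1 in STR/ort was the only call of an injury difference among the 7 genes, 1 of 7 against 4.66% of all genes. It had 0.714, 0.439, 1.20, 0.990 and 3.44 CPM in injured STR/ort joints and 0.352, 0.470, 0.218, 0.336 and 0.361 CPM in contralateral ones. The groups overlapped through 1 injured joint, and the difference was 1.92 on the log2 scale (SE 0.47, adjusted p = 0.00495). DESeq2 gave a difference of 1.95 and no adjusted p, so it did not make this call. Injured replicate 5 was the highest STR/ort joint for Cxcl1 (3.44 CPM), Cxcl3 (1.06 CPM) and Cxcl5 (15.3 CPM), and without it the Cxcl1 difference went to 1.25 (adjusted p = 0.0457). Cxcl5 and Cxcl3 had differences of 0.98 and 1.87 that did not pass the test (adjusted p = 0.0775 and 0.154). Without injured replicate 5 the Cxcl5 difference went to 0.10 (adjusted p = 0.853), while both RUVg fits (adjusted p = 0.0421 and 0.0366) and the fits without injured replicate 1, 2 or 4 called it. In injured STR/ort joints, cartilage markers summed to 3700 to 5430 CPM against 2140 to 3200 CPM in contralateral ones (3 of 5 called higher), synovial fibroblast markers to 3410 to 4550 against 2000 to 3430 CPM (4 of 5 called higher) and endothelial markers to 373 to 402 against 311 to 338 CPM (1 of 5 called higher). Their part in the Cxcl1 difference was not tested. In C57BL/6 and MRL/MpJ, 0 of 7 genes were called by edgeR and by DESeq2 (which gave no adjusted p in 9 of the 21 tests at 2-weeks) against 2.95% and 1.16%, with 2 and 0 at an unadjusted p under 0.05.

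Between strains at 2-weeks, injured STR/ort joints had more Cxcl1 than C57BL/6 by 1.91 (adjusted p = 0.00226) and more Cxcl5 by 1.74 (adjusted p = 0.00124), 2 of 7 beside 10.4% of all genes. Cxcl3 was not called (2.27, adjusted p = 0.0572), although both RUVg fits called it (adjusted p = 0.0378 and 0.0151). Leaving out 1 library moved this difference to values from 1.07 to 3.19 (adjusted p of up to 0.439, edgeR). Against MRL/MpJ, 4 of 7 were called beside 18.9%, with Cxcl1 higher by 2.45 (adjusted p = 0.000113), Cxcl3 by 2.91 (adjusted p = 0.0126) and Cxcl5 by 1.29 (adjusted p = 0.005), and Cxcl12 lower by 0.80 (adjusted p = 2.55e-07). Without injured STR/ort replicate 5, the differences to C57BL/6 went to 1.23 for Cxcl1 (adjusted p = 0.0232) and 0.86 for Cxcl5 (adjusted p = 0.00665). Those to MRL/MpJ went to 1.77 for Cxcl1 (adjusted p = 0.000994), 1.71 for Cxcl3 (adjusted p = 0.168) and 0.41 for Cxcl5 (adjusted p = 0.137), and with 2 RUVg factors the Cxcl5 call against MRL/MpJ was also lost (adjusted p = 0.147). Injured C57BL/6 joints had less Cxcr2 than MRL/MpJ by 0.62 (adjusted p = 9.17e-05), 1 of 7 beside 11.5%, a call that fell short of the fold threshold with 2 RUVg factors (-0.57) and without injured replicate 3 of MRL/MpJ (-0.56) or of C57BL/6 (-0.55). In contralateral joints, Cxcl12 was lower in STR/ort than in MRL/MpJ by 0.60 (adjusted p = 3.53e-05), 1 of 7 beside 13.8%, and this too lay close to the fold threshold (-0.58 with filterByExpr, and -0.53 to -0.58 in 4 of the 30 fits without 1 library). By edgeR, 0 of 7 were called in the other 2 pairs (9.78% and 9.83%). Between C57BL/6 and MRL/MpJ, Cxcl2 (2.70, adjusted p = 0.0528) rested on 9 reads against 1. It ranged from 2.17 to 4.07 without 1 library, and 22 of those 30 fits made no call. Cxcl5 between STR/ort and C57BL/6 (0.71, adjusted p = 0.262) was called by edgeR without injured STR/ort replicate 5 (adjusted p = 0.0229). Synovial fibroblast markers summed to 3410 to 4550 CPM in injured STR/ort joints, 1900 to 2590 CPM in C57BL/6 and 1440 to 2440 CPM in MRL/MpJ, and their part was not tested.

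Over time within a strain, Cxcl1 and Cxcl5 fell from 1-day to 1-week in injured joints of all 3 strains, and Cxcl2 and Cxcl3 in STR/ort. In STR/ort, Cxcl1 fell by 3.01 (adjusted p = 3.18e-06), Cxcl2 by 1.91 (adjusted p = 0.000166), Cxcl3 by 2.18 (adjusted p = 0.000104) and Cxcl5 by 1.83 (adjusted p = 0.000124) on the log2 scale, 4 of 7 against 13% of all genes. In C57BL/6, Cxcl1 fell by 2.33 and Cxcl5 by 2.66 while Cxcr2 rose by 0.68 (adjusted p = 5.01e-05), 3 of 7 against 4.35%. In MRL/MpJ, Cxcl1 fell by 1.59 and Cxcl5 by 1.89, 2 of 7 against 3.52%. Cxcl2 and Cxcl3 passed no test there, with differences of 0.24 and -1.14 in C57BL/6 and -0.59 and -1.18 in MRL/MpJ. In injured STR/ort joints, mature neutrophil markers summed to 6720 to 8350 CPM at 1-day and 4330 to 5990 CPM at 1-week, and endothelial markers to 272 to 304 and 347 to 436 CPM. In injured C57BL/6 joints, mature neutrophil markers summed to 5100 to 6530 and 6730 to 7670 CPM, and monocyte and macrophage markers to 790 to 952 and 474 to 577 CPM. The part of these markers in the changes over time was not tested. The 2-weeks libraries were made in another batch, so time and batch cannot be told apart there and no test was made across it.

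In contralateral joints, Cxcl1 was lower after injury of the other knee than before injury, in STR/ort alone among the called differences. It fell by 2.75 from 0-day to 1-day (SE 0.42, adjusted p = 7.53e-05), 1 of 7 beside 8.89% of all genes, and by 4.20 from 0-day to 1-week (SE 0.54, adjusted p = 1.37e-05), 1 of 7 beside 12.6%. The immediate early genes fell in the same comparisons, 6 of 8 at 1-day (median log2 difference -1.62) and 8 of 8 at 1-week (median -2.13), and all 5 muscle markers fell at both times. Monocyte and macrophage markers were higher, 6 of 7 at an adjusted p under 0.05 at each time (2 and 3 called), and synovial fibroblast markers went from a sum of 4180 to 8150 CPM at 0-day to 8940 to 12700 CPM at 1-day and 8490 to 22400 CPM at 1-week (2 and 5 of 5 called higher). The part of these groups in the fall of Cxcl1 was not tested. In MRL/MpJ, Cxcl1 went from no read at 0-day to 17 reads over 5 contralateral joints at 1-day, at least 3.32-fold higher, and this did not pass the test (adjusted p = 0.0989; 0.0386 with 1 RUVg factor). No other member was called by edgeR in these comparisons. Cxcl2 in STR/ort at 1-week (-1.83, adjusted p = 0.0582) was called lower by DESeq2 (adjusted p = 0.0269), by edgeR in 1 fit over all libraries of the first batch (adjusted p = 0.0163) and without contralateral replicate 1 (adjusted p = 0.000281). By edgeR it was 0 of 7 each in C57BL/6 (0.0462% and 5.54% of all genes) and MRL/MpJ (0.156% and 0%).

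**Figure D3:**
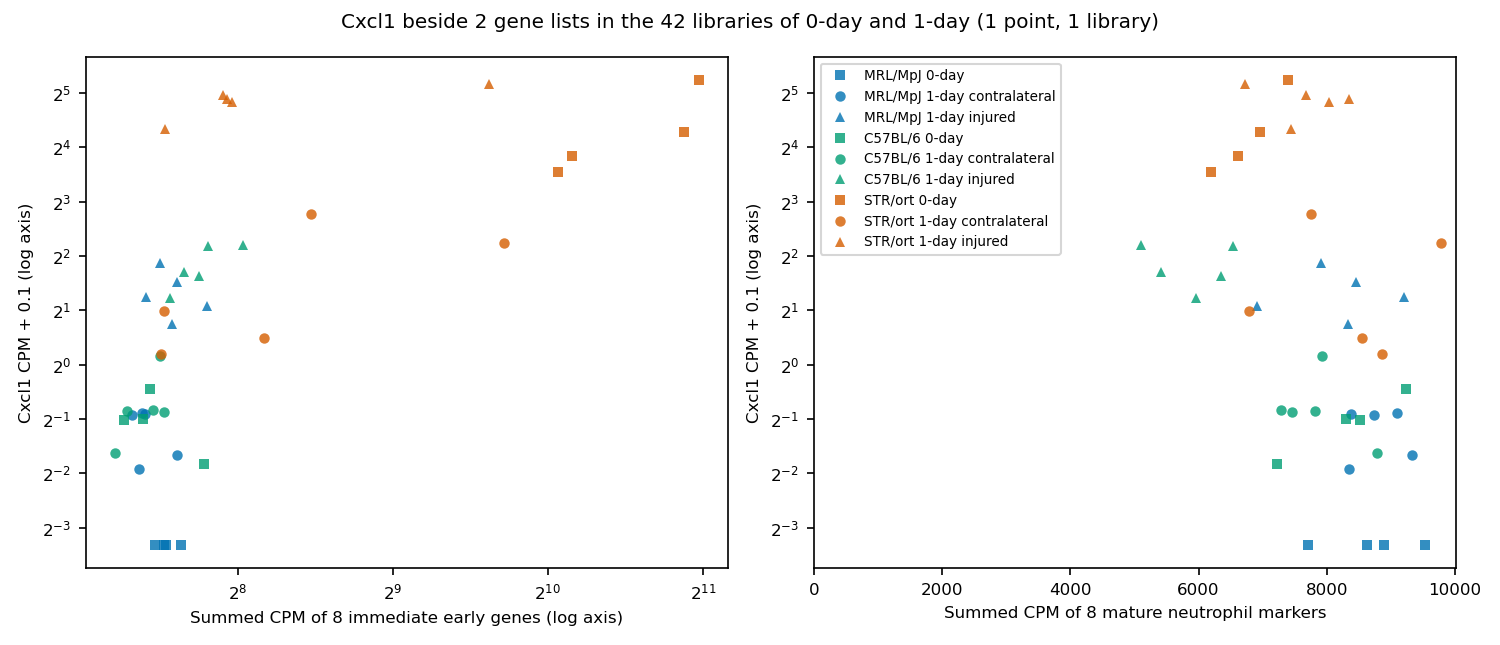
Cxcl1 CPM + 0.1 (vertical, log axis) against the summed CPM of the 8 immediate early genes (left, log axis) and of the 8 mature neutrophil markers (right, linear axis) in the 42 libraries of 0-day and 1-day, coloured by strain, with squares for 0-day, circles for contralateral and triangles for injured joints. The 4 STR/ort 0-day libraries lie at 1070 to 2010 CPM of immediate early genes, and the 5 injured STR/ort libraries at 1-day, 4 of them at 185 to 250 CPM, reach similar Cxcl1 levels.

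The 5 injured STR/ort joints at 1-day and the 4 STR/ort joints at 0-day had the highest mean levels of Cxcl1 of all 21 groups, at 28.9 ± 5.72 CPM (SD, n = 5) and 20.7 ± 11.7 CPM (SD, n = 4), and their ranges overlapped. The same groups differed in the other ligands: Cxcl3 was at 6.01 ± 2.71 CPM after injury and 0.184 ± 0.127 CPM before, and Cxcl2 at 3.09 ± 0.62 and 0.596 ± 0.133 CPM. The next groups in the order of Cxcl1, injured STR/ort at 1-week (3.54 ± 2.07 CPM), injured C57BL/6 at 1-day (3.46 ± 0.979 CPM), contralateral STR/ort at 1-day (3.13 ± 2.48 CPM) and injured MRL/MpJ at 1-day (2.44 ± 0.752 CPM), lay within each other's spread (SD, n = 5 each).

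Cxcr2, Cxcl12 and Cxcr4 were detected in every library, and the calls among these 3 were for Cxcr2 and Cxcl12. Cxcr4 group means were 68.6 to 106 CPM in the first batch and 112 to 137 CPM at 2-weeks, where time and batch cannot be told apart. Cxcr2 was lowest in C57BL/6 at 1-day, at 64.3 ± 6.1 CPM in injured joints (SD, n = 5), and highest in MRL/MpJ, whose group means were 135 to 160 CPM. Cxcl12 averaged 834 ± 21.6 CPM in MRL/MpJ, 709 ± 24.5 CPM in C57BL/6 and 543 ± 41.3 CPM in STR/ort before injury (SD, n = 4 each), with no overlap between the strains. Erythroid markers had the same order, again with no overlap, at sums of 3840 to 4690, 2500 to 2970 and 1700 to 1880 CPM. Marrow stroma markers had another order, at sums of 197 to 218 CPM in MRL/MpJ, 235 to 275 CPM in C57BL/6 and 188 to 198 CPM in STR/ort. The part of either list in the Cxcl12 difference was not tested. The Cxcl12 difference between STR/ort and MRL/MpJ lay close to the fold threshold. At 0-day it fell just short of it under both RUVg fits (-0.58 and -0.52) and without STR/ort replicate 3 (-0.57). With the settings used throughout, Cxcr4 was called in no comparison between strains or joints. It was higher in STR/ort than in MRL/MpJ at 0-day (0.55 on the log2 scale) and at 1-day in injured (0.53) and contralateral joints (0.56). In injured joints at 1-day it was also higher than in C57BL/6 (0.56). These values lay close to the fold threshold. Cxcr4 was called against MRL/MpJ at 0-day with 2 RUVg factors (0.70), without MRL/MpJ replicate 4 (0.59) and without STR/ort replicate 3 (0.61). At 1-day it was called against MRL/MpJ in injured joints without STR/ort replicate 5 (0.61) and in contralateral joints without STR/ort replicate 2 (0.60). Against injured C57BL/6 joints it was called without STR/ort replicate 5 (0.62). From 1-day to 1-week in injured STR/ort joints, Cxcr4 fell by 0.54, and leaving out 1 library gave -0.47 to -0.62. With 2 RUVg factors Cxcr4 was also called lower in injured STR/ort than C57BL/6 joints at 1-week (-0.71, against -0.30).

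**Figure D4:**
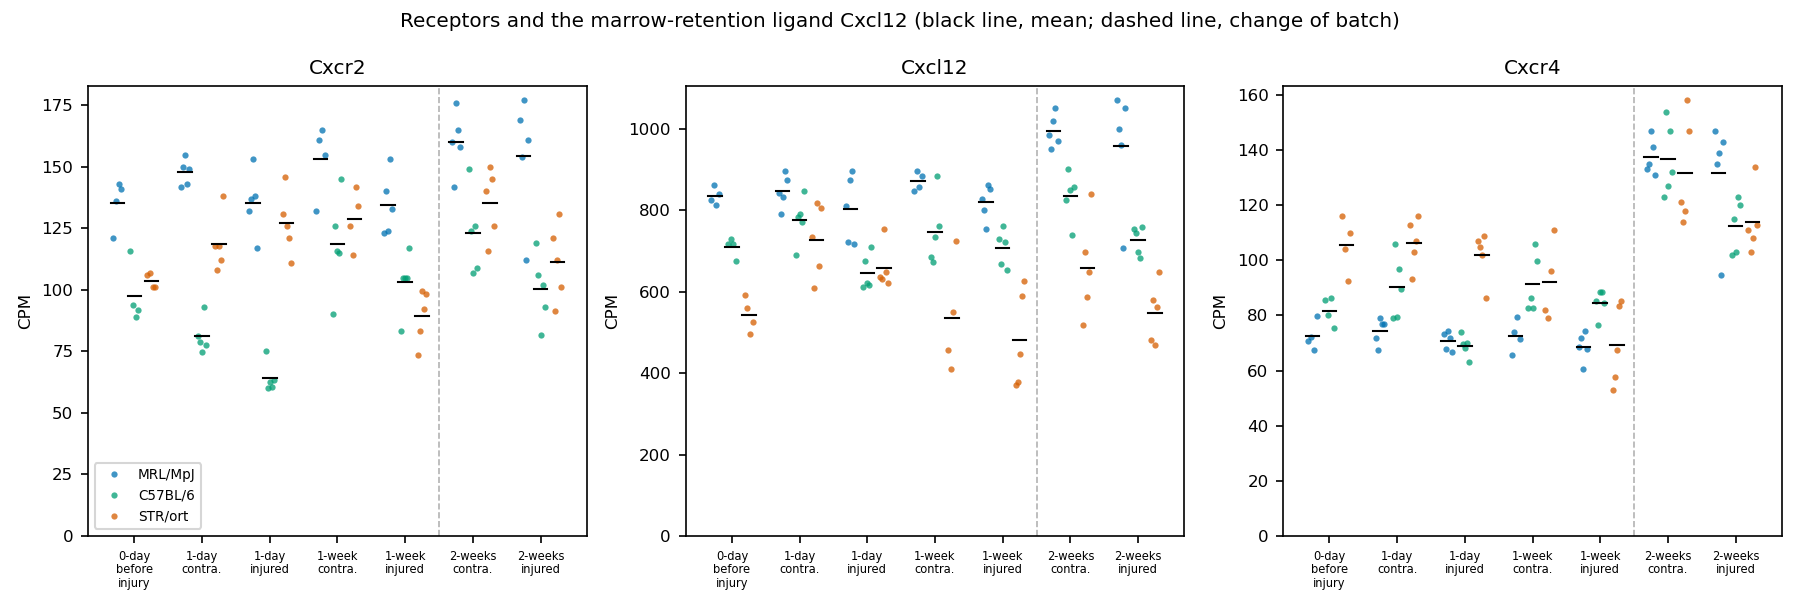
CPM of Cxcr2, Cxcl12 and Cxcr4 (vertical, linear axes from 0) in each library (points, coloured by strain) by time point and joint, with the group mean as a black line and the change of batch dashed. Cxcl12 lies highest in MRL/MpJ and lowest in STR/ort before injury (834 and 543 CPM), and Cxcr2 in STR/ort at 1-week does not overlap between injured (73.6 to 99.6 CPM) and contralateral joints (114 to 142 CPM).

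Levels were also divided by the gene's summed exon length in GENCODE, for a rough comparison between genes. The Cxcl12 level was then the highest of the 7 in STR/ort both before injury and in injured joints at 1-day (66.4 and 80.4 CPM per kb). Cxcr4 (58.3 and 56.4 CPM per kb) and Cxcr2 (34.0 and 41.7 CPM per kb) followed. Among the ligands, Cxcl1 was far above the others before injury (11 CPM per kb, against 2.41 for Cxcl5, 0.288 for Cxcl2 and 0.0527 for Cxcl3). In injured joints at 1-day, Cxcl5 (19.6 CPM per kb) and Cxcl1 (15.4 CPM per kb) were at similar levels and Cxcl3 (1.72) and Cxcl2 (1.49) lower. GENCODE gives Cxcl3 3498 exon bases, which is longer than its RefSeq span given above, while reads were counted over RefSeq genes. The Cxcl3 values per kb are therefore too low, and no order of Cxcl3 and Cxcl2 is read from them.

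The wider pathway was read from lists chosen by function. Of the other CXC chemokines and receptors, 14 of 16 were in the table, and 2 rose in injured joints at 1-day in every strain (background of calls 2.02% in MRL/MpJ, 5.6% in C57BL/6 and 4.31% in STR/ort). These were Cxcl14 (log2 differences of 1.52 in MRL/MpJ, 0.96 in C57BL/6 and 1.82 in STR/ort), a chemokine of monocytes and dendritic cells, and Cxcl16 (1.06, 1.71 and 0.80), the ligand of Cxcr6. The median over the 14 was 0.42 in MRL/MpJ, 0.13 in C57BL/6 and 0.06 in STR/ort. At 1-week in STR/ort, Cxcl16 was higher (1.16) and the B cell chemokine Cxcl13 (-1.36) and the platelet chemokine Pf4 (-0.61) lower in injured joints. At 1-week, Ackr3, a receptor that removes Cxcl12, was higher in injured joints of MRL/MpJ and C57BL/6 (0.90 each), as was Cxcl16 (0.91 and 0.88), and Cxcl14 in MRL/MpJ (0.59). At 2-weeks, Ackr3 (0.88), Cxcl14 (1.19) and Cxcl16 (0.79) were higher and Cxcr5, a B cell receptor, lower (-0.89) in injured STR/ort joints, and Ackr3 was higher in C57BL/6 (0.79).

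Of the genes of neutrophil recruitment, 14 of 15 were in the table, and Il6, an inflammatory cytokine, rose at 1-day in all 3 strains by 2.36 in MRL/MpJ, 2.46 in C57BL/6 and 3.34 in STR/ort (adjusted p = 7.1e-09 in STR/ort). Il1b, an inducer of the ligands, rose in C57BL/6 (0.62) and STR/ort (0.77). In STR/ort, Tnf (0.79) and the endothelial selectins Sele (1.02) and Selp (0.90), which slow neutrophils on the vessel wall, rose as well. That made 5 of 14 in STR/ort, 2 of 14 in C57BL/6 and 1 of 14 in MRL/MpJ, beside 4.31%, 5.6% and 2.02% of all genes, with medians of 0.30, -0.05 and 0.04 over the 14. At 1-week in STR/ort, Il6 (1.83) and Sele (0.83) were still higher and Fpr1, a neutrophil receptor for bacterial peptides, was lower (-0.66), 3 of 14 beside 9.21% of all genes. The median over the 14 was then -0.36, with 8 lower and 4 higher at an unadjusted p under 0.05. At 2-weeks Il6 (1.98) and Sele (0.93) were higher, 2 of 14 beside 4.66% (median -0.24).

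Markers of other cells moved at 1-day as well. Of the 5 synovial fibroblast markers, 3 rose in C57BL/6 (median log2 difference 0.88), 2 in MRL/MpJ (0.53) and 1 in STR/ort (0.06), and of the 7 monocyte and macrophage markers 4 rose in C57BL/6 (0.68), 1 in MRL/MpJ (0.20) and 1 in STR/ort (-0.07). These counts stand beside 5.6%, 2.02% and 4.31% of all genes called in C57BL/6, MRL/MpJ and STR/ort. Of the 5 muscle markers, 3 fell in STR/ort (median -0.77). The sum of the 5 marrow stroma markers was lower in injured joints without overlap in all 3 strains, at 194 to 212 against 216 to 240 CPM in MRL/MpJ, 215 to 238 against 252 to 287 CPM in C57BL/6 and 172 to 196 against 199 to 240 CPM in STR/ort, with 1 of 5 called, in STR/ort. Their part in the ligand differences was not tested.

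By the correlation of group means over the 21 groups, which share batch and strain structure, the genes whose pattern was most like Cxcl1 were Adamts1 (Pearson's r = 0.925), Zfp36l2 (0.916) and Ccl2 (0.895). For Cxcl5 they were Ptx3 (0.933), Saa3 (0.928) and Ccl7 (0.915), and for Cxcl3 Il11 (0.901), Gspt1 (0.879) and Cxcl14 (0.878). Cxcl2 was most like Nhp2 (0.826), Cyp7b1 (0.82) and Gpr35 (0.818). Cxcr2 was most like Ogfrl1 (0.913), Cd226 (0.902) and Gp6 (0.891), Cxcl12 like E2f2 (0.954), Asf1b (0.95) and Gfi1b (0.95), and Cxcr4 like Msrb1 (0.925), Gpd1l (0.921) and Zfp422 (0.915). Between the members, the 6 pairs of ligands had r of 0.777 to 0.892, Cxcr2 and Cxcl12 had 0.524, and Cxcl1 and Cxcl12 had -0.604. These values describe the 21 group means and carry no test.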

How the data were processed

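Whole knee joints gave poly(A) RNA-seq libraries (TruSeq; strand not given in the sources used here). The authors aligned reads to mm10 with TopHat2 (version 2.0.11) and deposited a table of raw counts per RefSeq gene from featureCounts, which kept genes that reached 2 counts in 5 or more libraries. Of 17313 entries, 3 repeated entries were dropped, and 24 gene names had been turned into dates. Depth was 6182016 to 20986027 counts per library, and no pair of the 190 within groups was identical. Intervals and limits set by 3 counts cover counting error only.

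Groups came from the labels. Counts were tested in R 4.3.3 with edgeR 4.0.16 (TMM factors, quasi-likelihood test, log2 prior count of 2, Benjamini-Hochberg adjustment), fitting each time point with its group means, and each strain over its 0-day, 1-day and 1-week libraries for the comparisons in time. Differences between strains at 0-day, between joints, between strains within a joint, and their interaction were tested. At 2-weeks, made in a second batch of 30 libraries, the labels tie same-numbered joints to 1 animal. The correlation of their deviations from the group means was 0.213 to 0.449 in STR/ort, 0.183 to 0.271 in C57BL/6 and -0.279 to 0.082 in MRL/MpJ. The authors normalized with RUVSeq on 25 housekeeping genes with a factor number not given in the sources used here, so RUVg with 1 or 2 factors was an alternative, beside size factors by RLE, DESeq2 1.42.0, no filter, filterByExpr, a replicate block and leaving out each library.

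The members and lists were chosen with earlier results of these data known. The genes named are the 7 members, from the lists genes called in the comparisons described, and for each member the 3 genes of mean CPM of at least 1 with the highest correlation over group means. In simulated counts, genes with a mean above 1 CPM were changed by a log2 value of 1. Of these, 95% were recovered for the 1-day difference in STR/ort and 91% for STR/ort against C57BL/6 at 0-day. These shares do not cover lower levels, such as those of Cxcl2 and Cxcl3 outside injured STR/ort joints. Promoter sequences came from RefSeq (GRCm38.p6) for 6 of the 7 members, all but Cxcl5.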

Additional observations from a re-analysis of the deposited data

Results flagged for a closer look

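In groups of 4 or 5 libraries, 1 library lay far from the others in 16 of the 146 sets of gene and group examined, 15 of them on the high side. Chance alone gives about 1 in 20 sets, and many of these values are single reads. In injured STR/ort joints at 2-weeks, replicate 5 stood above the rest for Cxcl1 (3.44 CPM, median of the others 0.852), Cxcl3 (1.06, others 0.128) and Cxcl5 (15.3, others 2.64). In contralateral STR/ort joints, replicate 1 at 1-week was high for Cxcl2 (0.754 CPM, all others at 0) and replicate 1 at 1-day for Cxcl3 (0.301, others 0.185). In MRL/MpJ, the high libraries were 1-week contralateral replicate 3 for Cxcl1 (0.504 CPM, others 0.113), 2-weeks contralateral replicate 4 for Cxcl2 (0.0838), and for Cxcl3 0-day replicate 2 (0.116), 1-day injured replicate 4 (0.895, others 0.338) and 1-week contralateral replicate 1 (0.113). In C57BL/6 they were 1-week injured replicate 4 for Cxcl2 (0.789 CPM, others 0.398), 1-day contralateral replicate 5 for Cxcl3 (0.0849), 0-day replicate 1 for Cxcl5 (2.44, others 1.61) and 1-day injured replicate 1 for Cxcr2 (75.0, others 61.6). Cxcl12 was high in 1-day injured STR/ort replicate 3 (754 CPM, others 632), and Cxcr4 was low in 2-weeks injured MRL/MpJ replicate 4 (94.6 CPM, others 141).

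The injury difference of Cxcr2 at 1-day differed between STR/ort and C57BL/6 by 0.42 on the log2 scale (SE 0.11, adjusted p = 0.0212, edgeR), which is under the fold threshold. With a replicate block, the adjusted p was 0.052. Of the 8 marrow granulocyte precursor markers, 5 were higher in the same interaction at an unadjusted p under 0.05 (edgeR), and 0 were called, beside 2.66% of all genes. Cxcr2 was lower in injured C57BL/6 joints and close to its contralateral level in STR/ort.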

How the results depend on the processing

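Of the 70 calls of a member in a comparison, 47 were made under every alternative in which the gene was tested (filterByExpr dropped some low ones), 53 with every library left out in turn and 41 under both, and none reversed. With 1 RUVg factor, the calls between strains within contralateral joints went from 11 to 6. With filterByExpr, the injury calls at 1-week went from 4 to 2 (6 of the 21 tests were not made, since low genes were dropped) and at 2-weeks from 1 to 0 (9 not made). At 2-weeks, DESeq2 gave 0 injury calls because it assigned no adjusted p in 9 of 21 tests, Cxcl1 in STR/ort included (log2 difference 1.95), and RUVg with 1 or 2 factors gave 2 calls each. The cause of the RUVg changes was not tested. Leaving out 1 library gave 6 to 8 calls between strains at 0-day, 8 to 10 injury calls at 1-day, 3 to 5 at 1-week and 1 to 2 at 2-weeks, 25 to 29 between strains in injured and 9 to 13 in contralateral joints, 0 to 1 for the interaction (1 without contralateral STR/ort replicate 1 at 1-week), 2 to 3 against 0-day and 9 to 10 between 1-week and 1-day. The second injury call at 2-weeks appeared without injured STR/ort replicate 1, 2 or 4. With a replicate block, the injury calls were 9 at 1-day, 4 at 1-week and 1 at 2-weeks and the interaction calls 0, and no member call changed. Same-numbered joints correlated at -0.21 to 0.392 at 1-day and -0.035 to 0.431 at 1-week, where no label ties them to an animal. In STR/ort at 1-week all 4 pairs lay at 0.162 to 0.37, a hint of pairing from the data. In the other strains at 1-week, and in every strain at 1-day, 1 or more pairs lay under 0.1. Depth limits Cxcl2 and Cxcl3 most, with few reads per library outside injured STR/ort joints at 1-day and 1-week.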

Other observations

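Genes around the ligands and around Cxcl12 also differed between the strains before injury (edgeR, Benjamini-Hochberg adjustment). Of the 14 neutrophil recruitment genes in the table, 3 were higher and 1 lower in STR/ort than in C57BL/6, and 3 higher and 2 lower than in MRL/MpJ, where 13.8% and 14.8% of all genes were called. The higher genes were the same in both: Il1b (log2 differences of 0.94 and 1.37), Il6 (1.96 and 1.91) and Nfkbiz (0.98 and 0.90), an NF-kappaB cofactor that is itself induced by interleukin-1. Itgam, a subunit of the integrin by which neutrophils adhere, was lower in STR/ort in both comparisons (-0.82 and -0.75), and Tnf was lower than in MRL/MpJ (-1.02).

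Of the other CXC chemokines and receptors, 5 of 14 were higher in STR/ort than in MRL/MpJ at 0-day and 1 was lower, beside 14.8% of all genes, and DESeq2 called 5. Ackr3, a receptor that binds and removes Cxcl12, was higher by 1.41 (SE 0.10, adjusted p = 2.26e-09). It was also higher in C57BL/6 than in MRL/MpJ by 0.93 (adjusted p = 6.34e-07), the reverse of the order of Cxcl12 RNA. Only RNA of both genes was measured, and a part of Ackr3 in the Cxcl12 levels was not tested. Cxcl13, which attracts B cells, was higher than in MRL/MpJ by 3.48 in STR/ort and by 3.79 in C57BL/6. Against C57BL/6, where 13.8% of all genes were called, edgeR called 0 of the 14 higher in STR/ort and 3 lower, Cxcl10 (-0.76), Cxcr1 (-3.73) and Cxcr5 (-0.66). DESeq2 called 0 of the 14 in that comparison, and 7 had an unadjusted p under 0.05 in edgeR.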
